A study of Mus musculus with 6 samples.

Results

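The genes described here are the receptors, co-receptors, signal transducer and transcription factors of the hedgehog pathway. They are the 9 listed symbols Ptch1, Hhip, Smo, Gas1, Boc, Cdon, Gli1, Gli2 and Gli3, taken by name from a table of 55401 genes. The rule itself uses no measured value, but the list was drawn up with earlier results of these data known. Each symbol matched 1 row, and all 9 were among the 19612 genes with enough counts to be tested. RNA was measured in bulk frontonasal and maxillary prominence tissue, the source of the nose, midface and upper jaw, dissected from E10.5 mouse embryos. The 3 Tfap2Δ/NCKO mutants, called Tfap2 mutants below, carried Wnt1:CRE with 1 null and 1 floxed allele of both Tfap2a and Tfap2b. The 3 controls were CRE-negative siblings and could hold any mix of the Tfap2a and Tfap2b alleles. All dams were homozygous for the floxed allele of both genes, so every control also carried a floxed allele of each, and the background was mixed. Wnt1:CRE recombines in pre-migratory neural crest, so cells outside that lineage, such as the ectoderm, kept a floxed copy beside the null allele. Every mutant and no control carried the transgene, so effects of the transgene and of TFAP2 loss cannot be told apart.

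Hedgehog ligands bind Patched 1, which holds the membrane protein Smoothened in check when no ligand is present. Once released, Smoothened acts in the primary cilium on the GLI factors, of which Gli3 serves mainly as a repressor and Gli2 mainly as an activator, and the transcription of Gli1, Ptch1 and Hhip is a common readout of the signal. In the embryonic face Shh comes from ectoderm and forebrain and acts on neighbouring neural crest mesenchyme, and mice without the co-receptors Gas1 or Cdon are known for midline defects of the face and forebrain, which loss of Boc can modify.

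The total count per library ran from 68119668 to 77555252, and expression is given in CPM, the count divided by the scaled library size and put on a common depth. A gene was called at a Benjamini-Hochberg adjusted p under 0.05 in edgeR's quasi-likelihood test together with a log2 fold change beyond 0.32 in either direction (above 125% or below 80.0% of control), and 64 genes, or 0.326% of those tested, met both limits. The targeted genes were not called. Tfap2a had a log2 fold change of -0.15 and Tfap2b of -0.22 (edgeR adjusted p 0.684 and 0.26), but these values sum all exons and all cells of the tissue and so say little about the deletion within crest. Controls 1 and 3 lacked expression of Y-linked genes (0.0200 and 0.00662 CPM, mean of 4 genes), whereas control 2 and all 3 mutants had it (36.9 to 39.1 CPM), so genotype and embryo sex were not balanced. The 5 markers of crest mesenchyme summed to 644 to 660 CPM in controls and 560 to 616 CPM in mutants, and all 5 had lower mutant values with a median log2 fold change of -0.14. The 7 epithelial markers (259 to 273 against 275 to 326 CPM, 5 higher) and the 6 neuroepithelial markers (661 to 735 against 734 to 804 CPM, 6 higher) leaned the other way. None of these 3 lists held a called gene. The 6 macrophage markers had higher mutant values throughout (19.9 to 28.2 against 35.4 to 51.6 CPM summed, median log2 fold change 0.79), with 1 of them, C1qb, called, and the 5 endothelial markers were also all higher (209 to 219 against 229 to 248 CPM, none called). No marker was at 0. The part of these shifts in the hedgehog values was not tested. In bulk tissue, fewer cells of a type and less RNA per cell cannot be told apart.

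None of the 9 hedgehog genes was called. Of these, 7 had a lower and 2 a higher mutant value, the median log2 fold change was -0.08 against 0.0008 over all genes tested, and the differences ran from -0.26 for Gas1 to 0.11 for Gli3. DESeq2's Wald test also called none. It gave 1 gene, Cdon, an adjusted p under 0.05 (0.0433, at a fold below the limit), where 1.82% of all genes had one. At an unadjusted p under 0.05 edgeR gave 4 of the 9, namely Gas1, Cdon, Gli1 and Gli2, all with lower mutant values. Among all genes 3.65% had such a p with a lower value, and 7.95% had one in either direction. The count of 4 rested on the set of libraries. It was 2 without control 2, control 3 or mutant 2, 1 (Cdon) without mutant 1 or mutant 3, and 0 with a term for Y-linked expression. Only 1 control expressed Y-linked genes, so that term and genotype are hard to separate. With it the SE grew, for Cdon from 0.06 to 0.08 and for Gas1 from 0.09 to 0.13. The estimates were -0.14 for Cdon, -0.29 for Gas1, -0.16 for Gli1 and -0.05 for Gli2. Control and mutant values did not overlap for 3 of the 9, Cdon, Gli1 and Gli2, all lower, against a background of 6.24% lower and 7.15% higher. For 5 of the 9 the whole 95% interval of the difference lay within that fold limit in both directions, as it did for 47.0% of all genes. The 5 were Ptch1, Smo, Boc, Gli2 and Gli3, while for Hhip, Gas1, Cdon and Gli1 the interval reached past that fold on at least 1 side.

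**Figure D1:**
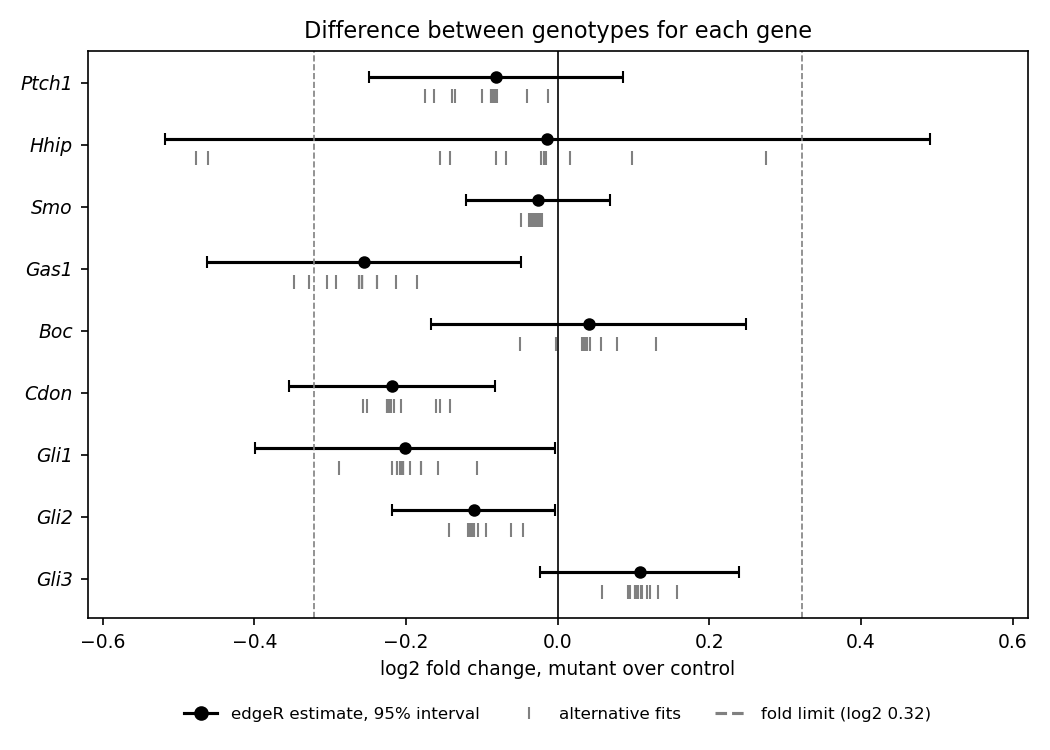
Log2 fold change of mutant over control for each of the 9 genes, with its 95% interval from edgeR (black) and the estimates under 15 alternative fits (grey ticks); dashed lines mark the fold limit of 0.32 either way. The 4 intervals that leave out 0 are those of Gas1, Cdon, Gli1 and Gli2, the last 2 by 0.003, and Hhip has the widest interval.

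The spread of the 9 genes in level was far larger than any difference between genotypes. Levels were scaled to the length of the longest annotated coding transcript. Smo had the highest level with a mean of 76.9 CPM per kilobase, followed by Gas1 with 40.4. Gli3 (19.2), Cdon (15.7), Ptch1 (14.6), Gli2 (12.3), Boc (10.6) and Gli1 (10.2 CPM per kilobase) formed a middle range in which each gene overlapped the next across the 6 libraries. Hhip was lowest with 0.373 CPM per kilobase. The steps from Smo to Gas1, from Gas1 to Gli3 and from Gli1 to Hhip showed no overlap between libraries. Gas1, whose longest transcript is a single exon of 2.961 kilobases, ranked above Gli3 and Ptch1 only on this scale, since in CPM both exceeded it.

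Ptch1 (ENSMUSG00000021466.12, chromosome 13, 63508328 to 63573598, minus strand, mm10) encodes the ligand receptor and is itself a target of the pathway. It was measured at 158, 165 and 145 CPM in control libraries 1, 2 and 3, against 158, 133 and 151 CPM in mutant libraries 1, 2 and 3. Mutant 1 matched control 1 and only mutant 2 lay below the controls. The log2 fold change was -0.08 (95% interval -0.25 to 0.09).

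Hhip (ENSMUSG00000064325.4, chromosome 8, 79965851 to 80058006, minus strand) encodes a membrane protein that binds and sequesters hedgehog ligands and is induced by the pathway. Its values were 2.75, 4.64 and 2.82 CPM in the controls and 2.81, 3.69 and 3.61 CPM in the mutants. Control 2 was the highest and control 1 the lowest of all 6, so the mutants lay inside the control range. With 196 to 337 counts per library Hhip was the least precisely measured of the 9 genes, at a log2 fold change of -0.01 (interval -0.52 to 0.49). Leaving out control 2 turned the estimate to 0.27, and setting control 2 alone, the control with Y-linked expression, against the mutants gave -0.48.

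Smo (ENSMUSG00000001761.7, chromosome 6, 29735503 to 29761365, plus strand) encodes the transducer that passes the signal from receptor to GLI factors. It was nearly level across the embryos, with 292, 295 and 293 CPM in the controls and 286, 293 and 285 CPM in the mutants. Mutant 2 lay within the control range and the other two mutants just beneath it. The log2 fold change of -0.03 (interval -0.12 to 0.07) was the most narrowly bounded of the 9.

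**Figure D2:**
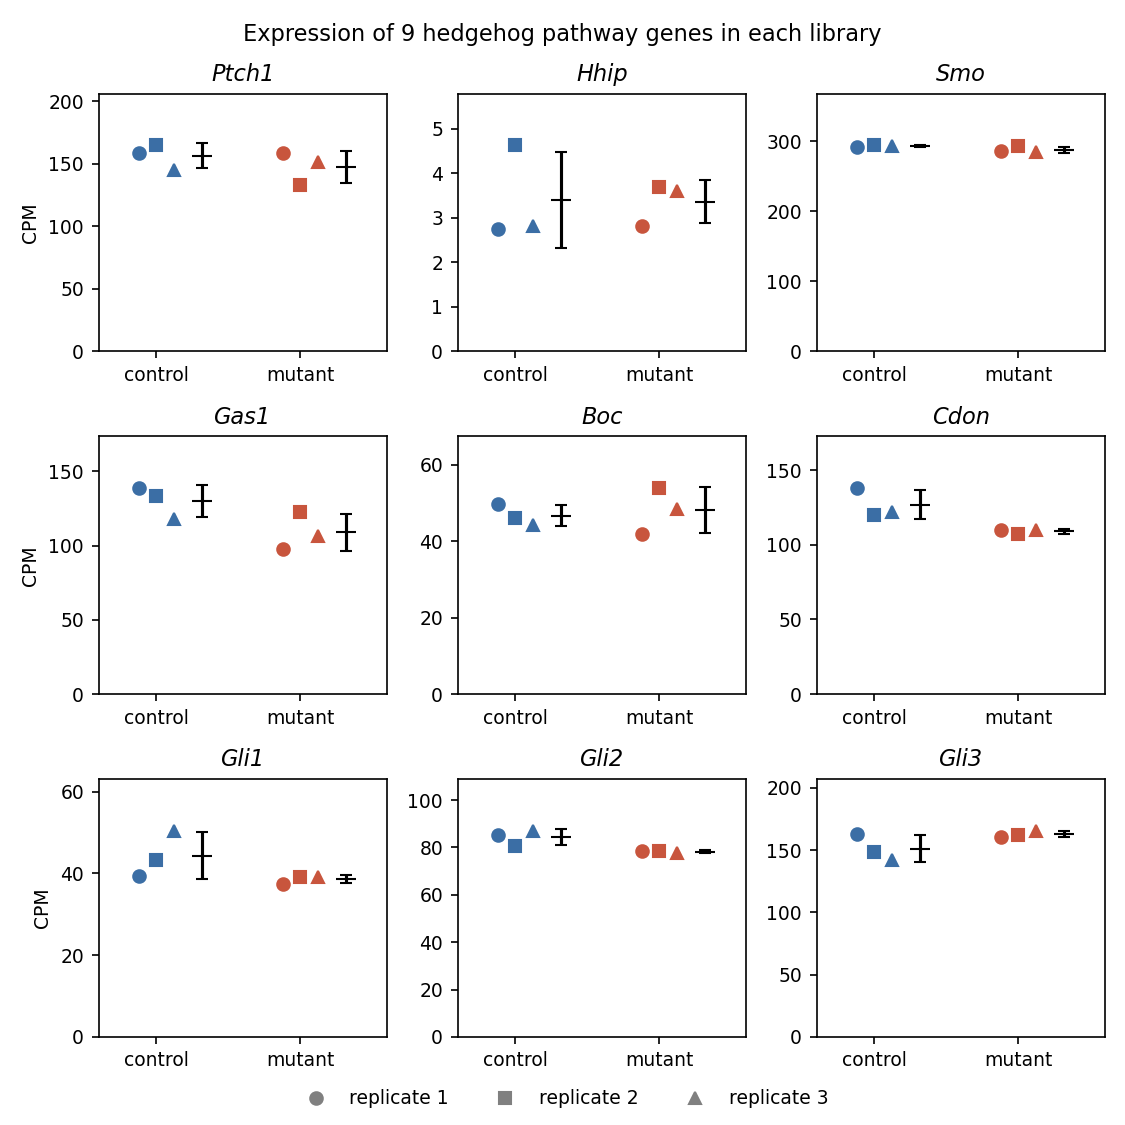
CPM of each gene in the 3 control (blue) and 3 mutant (red) libraries, with marker shape for the replicate number and black bars for mean ± SD (n = 3 per group); each axis starts at 0. The mutants lie below all controls for Cdon, Gli1 and Gli2, by a hair for Gli1 (39.3 against 39.2 CPM), and overlap them for the other 6 genes.

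The 3 co-receptors, which bind hedgehog ligands together with Patched 1 and raise the response of the receiving cell, differed in direction, with lower mutant means for Cdon and Gas1 and a slightly higher one for Boc. Cdon (ENSMUSG00000038119.15, chromosome 9, 35421128 to 35507652, plus strand) encodes an immunoglobulin and fibronectin domain protein. It stood at 138, 120.0 and 122 CPM in the controls, against 110, 107 and 110 CPM in the mutants. Every mutant lay beneath every control, the mutants were tightly grouped and control 1 was the highest library. Its means were 127 ± 9.85 and 109 ± 1.51 CPM (SD, n = 3), 85.9% of control, at a log2 fold change of -0.22 (SE 0.06, edgeR adjusted p 0.267, unadjusted 0.00556). The estimate stayed negative in all 15 alternatives and ran from -0.26 to -0.14. A term for Y-linked expression took it to -0.14 with a wider SE of 0.08 and an unadjusted p of 0.123 in edgeR.

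Gas1 (ENSMUSG00000052957.8, chromosome 13, 60174405 to 60177365, minus strand) encodes a co-receptor tethered to the outer face of the cell membrane. Its values were 139, 133 and 118 CPM in the controls and 98.0, 123 and 106 CPM in the mutants. Mutant 2 lay above control 3, so the groups overlapped, and mutant 1 was the lowest library. Gas1 had the largest point estimate of the 9, a log2 fold change of -0.26 (SE 0.09, interval -0.46 to -0.05, edgeR adjusted p 0.471, unadjusted 0.0216), and its estimate ran from -0.35 to -0.19 over the alternatives.

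Boc (ENSMUSG00000022687.12, chromosome 16, 44485049 to 44558897, minus strand) encodes the closest relative of Cdon. It had 49.6, 46.1 and 44.3 CPM in the controls and 41.9, 53.9 and 48.3 CPM in the mutants, so the lowest and the highest library were both mutants. The log2 fold change was 0.04 (interval -0.17 to 0.25), and it turned to -0.05 without mutant 2. Ratios within each library need no scaling factor and were formed after the fit was seen. Gas1 over Boc was 2.80, 2.89 and 2.67 in the controls and 2.34, 2.27 and 2.20 in the mutants. Every mutant ratio lay beneath every control ratio, although neither gene separated the groups by itself. Gas1 had a lower and Boc a slightly higher mutant mean, so the direction of this ratio followed from the choice of pair. The share of gene pairs that separate the groups was not computed, and the ratio carries no test. Cdon over Boc was 2.78, 2.60 and 2.76 against 2.62, 1.99 and 2.28, with mutant 1 inside the control range.

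Boc and Cdon are paralogs, as are the GLI genes. Their whole transcripts, untranslated regions included, were therefore compared to see whether reads could be credited to the wrong member. The longest identical run between each pair, read 5′ to 3′ from the longest GENCODE M21 coding transcripts, is shown because each is far shorter than the 150-base reads. The capitals mark the 9 opening bases that both Gli1 runs share, at different places in the Gli1 coding sequence.
Boc and Cdon: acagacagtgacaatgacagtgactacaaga
Gli1 and Gli2: GAGAAGCCAcacaagtgcacgtt
Gli1 and Gli3: GAGAAGCCAtacgt
Gli2 and Gli3: aagaaggagttcgtgtgccgctggc
The runs spanned 31 bases between Boc and Cdon, 23 between Gli1 and Gli2, 14 between Gli1 and Gli3 and 25 between Gli2 and Gli3, and all lay within coding sequence in both genes. Exons of 4 members were overlapped on the opposite strand: Hhip over 175 bases, Gas1 over 589, Gli1 over 327 (with Arhgap9 and Gm47200) and Gli3 over 188. The overlapping genes stood at 0 CPM for Hhip, at most 0.882 CPM for Gas1, 2.00 CPM for Gli1 and 2.11 CPM for Gli3 (Gm6556). The kit kept strand but no strand option is listed for the counting, so reads of such pairs may not have been separated.

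Among the GLI factors, the mutant values of Gli1 and Gli2 leaned lower and those of Gli3 leaned higher, with none called. Gli1 (ENSMUSG00000025407.7, chromosome 10, 127329882 to 127341974, minus strand) encodes an activator whose transcription depends on the signal. It stood at 39.3, 43.3 and 50.5 CPM in the controls, against 37.4, 39.2 and 39.1 CPM in the mutants. The mutants lay close together just beneath the controls, and control 3 was well above the rest. The groups overlapped when libraries were scaled by total count alone, without mutant 1 and without mutant 3. The log2 fold change was -0.20 (SE 0.09, edgeR adjusted p 0.617, unadjusted 0.0474). Without control 3 it was -0.11.

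Gli2 (ENSMUSG00000048402.14, chromosome 1, 118834132 to 119053619, minus strand) encodes the main activator of the first response. Its values were 85.4, 80.7 and 87.1 CPM in the controls and 78.4, 78.6 and 77.5 CPM in the mutants. All mutants lay beneath all controls, with a spread among mutants of 0.617 CPM (SD) against 3.31 CPM among controls. The difference was small, 92.6% of control or -0.11 on the log2 scale (interval -0.22 to -0.003, edgeR adjusted p 0.608). It became -0.05 with the term for Y-linked expression.

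Gli3 (ENSMUSG00000021318.15, chromosome 13, 15463235 to 15730026, plus strand) encodes the main repressor. It had 163, 148 and 142 CPM in the controls and 161, 162 and 166 CPM in the mutants. Control 1 stood at the mutant level while controls 2 and 3 lay below it. The log2 fold change was 0.11 (interval -0.02 to 0.24, edgeR adjusted p 0.764), and it kept a positive sign in all 15 alternatives, from 0.06 to 0.16.

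The ratio of Gli3 to the other GLI genes was therefore formed within each library, a comparison chosen after the fit was seen. Gli3 over Gli2 was 1.91, 1.84 and 1.63 in the controls and 2.05, 2.07 and 2.14 in the mutants. All mutant ratios exceeded all control ratios, by 0.22 on the log2 scale, and the mutants differed little among themselves. Gli3 over Gli1 was 4.15, 3.42 and 2.82 in the controls and 4.29, 4.14 and 4.24 in the mutants. Here mutant 2 lay just under control 1, so the groups overlapped, with a mean difference of 0.30 on the log2 scale. These are ratios of RNA counts not scaled for length, and they do not measure GLI protein or its processing. Since they were chosen for their pattern they carry no test, and the share of gene pairs that separate the groups was not computed.

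**Figure D3:**
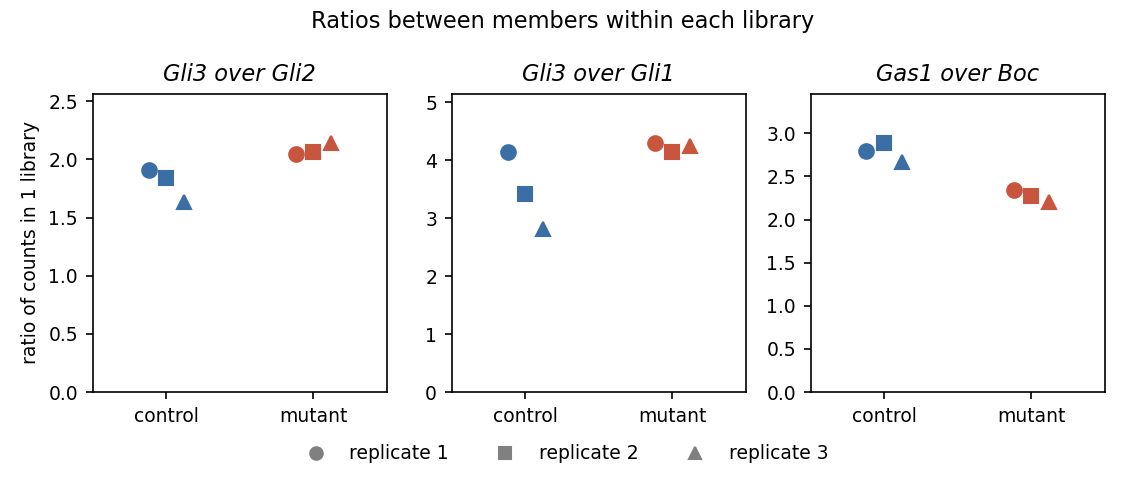
Ratio of counts between pairs of genes within each control (blue) and mutant (red) library, with marker shape for the replicate number and axes that start at 0. Gli3 over Gli2 is 2.05 or more in the mutants and 1.91 or less in the controls, Gli3 over Gli1 overlaps at 4.14 and 4.15, and Gas1 over Boc is lower in all mutants.

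Because the crest mesenchyme markers also had lower mutant values, each gene was set against the sum of those 5 markers in the same library, again after the fit was seen. That sum was itself lower in every mutant (560 to 616 against 644 to 660 CPM), so dividing by it raises the mutant values of any gene. The share of all genes that separate the groups on this scale was not computed. On this scale no hedgehog gene had all mutants below all controls. The difference was -0.08 for Cdon, -0.12 for Gas1, -0.06 for Gli1 and 0.03 for Gli2 (log2), and each of the 4 overlapped between groups. Smo and Gli3 had all mutants above all controls, by 0.11 and 0.25. The part that tissue composition had in the CPM differences was not tested.

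The rest of the pathway was read from 4 lists with 61 genes, all of them tested. Of these 1 was called and 60 were not, where 0.326% of all genes tested were called. An unadjusted p under 0.05 in edgeR was found for 5, where 7.95% of all genes had one, and the median log2 fold change was -0.004. Both shares also apply beside the counts of each list below. None of the 8 genes for ligands and their release was called by edgeR or by DESeq2, and 1 (Dhh) had an unadjusted p under 0.05 in edgeR. Shh, the ligand made by facial ectoderm and forebrain, had 10.9, 17.3 and 13.0 CPM in the controls and 14.4, 8.78 and 13.6 CPM in the mutants. Its lowest library was mutant 2 and its highest control 2, and the estimate of -0.17 (interval -0.71 to 0.37) allowed a difference in either direction. Dhh, another ligand known best from testis and nerve sheath, was barely expressed. It had 0.321, 0.0826 and 0.291 CPM in the controls and 0.373, 0.592 and 0.614 CPM in the mutants, at a log2 fold change of 1.18 (edgeR adjusted p 0.556). Scube3, a secreted protein that aids ligand release, had the highest CPM of this list, with means of 152 ± 13.7 and 155 ± 8.40 CPM (SD, n = 3).

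None of the 22 genes of reception and transduction was called by edgeR or by DESeq2, 1 (Spop, which encodes a ubiquitin ligase adaptor for GLI proteins, log2 fold change 0.11, named after its values were seen) had an unadjusted p under 0.05 in edgeR, and the differences stayed between -0.08 and 0.14. For 19 of the 22 the 95% interval lay within the fold limit, as it did for 47.0% of all genes. Lrp2, a large endocytic receptor of the ventral forebrain that binds Shh, varied widely among mutants, with 48.5, 25.5 and 42.9 CPM against 36.4, 31.7 and 38.2 CPM in the controls. Gpc3, a glypican that competes with Patched 1 for ligand, had means of 387 ± 36.7 and 367 ± 35.1 CPM.

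Of 18 genes of ciliary transport none was called by edgeR or by DESeq2, and 1 (Ift140) had an unadjusted p under 0.05 in edgeR. Ift140, a subunit of the retrograde transport complex, had 61.4, 61.9 and 61.6 CPM in the controls and 53.6, 54.5 and 55.2 CPM in the mutants. The groups were far apart for their spread, but the difference of -0.18 did not pass in edgeR (adjusted p 0.199), while DESeq2's Wald test gave an adjusted p of 0.0309 at a fold below the limit. Kif3a, a subunit of the anterograde kinesin, had the highest mean CPM of the list, with means of 57.9 ± 0.753 and 59.1 ± 1.93 CPM.

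For 13 genes listed here as hedgehog-responsive, a response not tested in this tissue, 1 was called lower, none higher and 12 were not called. The median log2 fold change was 0.03. An unadjusted p under 0.05 in edgeR was found for 2, Foxf1 and Foxd2, both lower. Foxd2, named after its values were seen, stood at 80.7% of control (log2 fold change -0.31, edgeR adjusted p 0.455, unadjusted 0.01998). The called gene was Foxf1, a forkhead factor of mesoderm and facial mesenchyme. It went from 11.0, 14.0 and 11.0 CPM in the controls to 6.86, 7.09 and 6.83 CPM in the mutants, 57.7% of control (log2 fold change -0.79, SE 0.11, edgeR adjusted p 0.0308). The mutants were tightly grouped and far beneath the lowest control, and the estimate stayed between -1.03 and -0.67 in all 15 alternatives. The call held in 9 of them. It was lost without control 1 or 3 or any 1 mutant (adjusted p 0.0596 to 0.145) and with the libraries that expressed Y-linked genes alone (0.0547). Gm27530 overlaps Foxf1 over 98 bases on the opposite strand and had 0 CPM. Ccnd2, a cyclin with the highest CPM of the list, had means of 627 ± 44.6 and 671 ± 13.8 CPM.

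**Figure D4:**
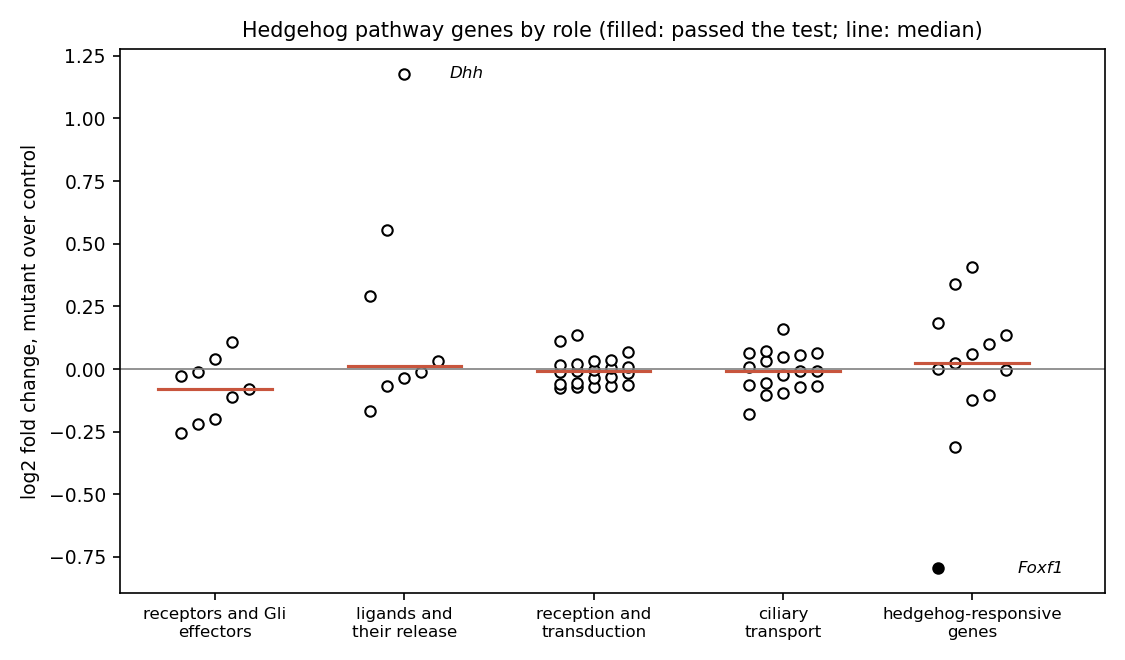
Log2 fold change of mutant over control for the 9 receptors and Gli effectors and for the 61 other pathway genes by role, with 1 circle per gene, filled where called, and a red line at the median of each list. The medians lie between -0.08 and 0.03, Foxf1 at -0.79 is the only filled circle, and Dhh at 1.18 is a gene below 1 CPM.

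The 9 genes were also compared with each other across the 6 libraries. Among the 36 pairs Pearson's r of log2 CPM ran from -0.925 to 0.865 with a median of 0.084, and 20 pairs were above 0. The lowest belonged to Gli1 and Gli3 (rho -0.600), but without the 2 libraries farthest from the median of Gli1 it was 0.682 over the other 4, so it rests on those libraries. The highest belonged to Gas1 and Smo (rho 0.543), and was 0.931 without the 2 libraries farthest from the median of Gas1. Ptch1 followed Shh with an r of 0.794 (rho 0.829), which became -0.197 without the 2 libraries farthest from the median of Ptch1, so it too rests on those. These values describe 6 libraries of 2 genotypes that share their scaling, and no p was attached. By the same measure the genes nearest to Ptch1, among 10328 with a mean of at least 10 CPM, were Tcf20 (r 0.989), Zbtb6 (0.977) and Rlf (0.977). Those nearest to Gli1 were Hps3 (0.998), Tcf7l1 (0.989) and Casp9 (0.979). These are the highest of 10328 values over 6 libraries, so an r this high can arise from that choice alone. None was recomputed with libraries left out.

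The start regions of the genes were searched for 2 sets of letters. RefSeq windows on GRCm38.p6, 250 bases before to 50 after the annotated start, were matched for 7 of the 9 members, with Boc and Gli1 unmatched. The AP-2 letters GCCNNNGGC, which are their own reverse complement, occurred in 1 of the 7 windows, that of Hhip, against 16.6% of all 32851 windows. There they stood at 166 bases before and at 25 bases after the start. The stretch around the first, on the minus strand at chr8:80058141-80058199, is shown with those letters in capitals because Hhip is the member that holds them.
Hhip: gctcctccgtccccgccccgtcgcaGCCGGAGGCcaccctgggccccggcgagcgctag
As given above, Hhip values overlapped between genotypes. The GLI letters GACCACCCA, sought on both strands, occurred in 0 of the 7 windows and in 0.253% of all windows. The annotated starts in the Cdon and Ptch1 windows lie 30948 and 7863 bases from the GENCODE gene start, so these windows cover another start of those genes. Those in the Gli3 and Gas1 windows lie 488 and 170 bases away, and these windows do not hold the GENCODE start either. A match is a description of letters and was not tested as a site.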

How the data were processed

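The authors mapped reads to mm10 with STAR, quantified an annotation with StringTie and made a gene table of deposited estimated counts with its prepDE script, which converts coverage to whole reads. The versions of these tools, the release of the annotation and the prepDE read length were not given in the sources used here. The table also holds the authors' DESeq2 fold changes and p-values, and another holds kallisto and sleuth estimates. Neither was used. Of the per-sample columns, 0 were left out.

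The members and gene lists were chosen with earlier results of these data known. All genes were fitted with edgeR 4.0.16 in R 4.3.3 (filterByExpr by genotype, TMM factors 0.992 to 1.01, robust quasi-likelihood F test, no covariate), with Benjamini-Hochberg adjustment over 19612 genes. The SE is the log2 fold change divided by the square root of F. The script was tested on simulated data. Alternatives were DESeq2 1.42.0, other scaling and filters, halved counts, leaving out each library, a replicate block, a term for Y-linked genes, and only libraries with Y-linked expression. Ratios were added after the data were seen.

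All members were named. Of each other list, called genes, the gene with the highest mean CPM and that with the largest difference were named, with Shh, and for Ptch1 and Gli1 the 3 genes nearest by Pearson's r. A further gene that the rule names is not reported here. Marker lists covered crest mesenchyme, epithelium, neuroepithelium, macrophages and endothelium, given in the report, and neurons (351 to 491 against 296 to 394 CPM), erythroid cells (1906 to 4291 against 2309 to 3369) and head muscle (2.56 to 4.69 against 3.85 to 4.25), summed in controls against mutants. Reads carried no molecular identifiers, so counts are not of independent molecules, nothing states that replicates came from separate litters, and 3 counts stood for 0.0387 to 0.0440 CPM. Gene models came from GENCODE M21 on GRCm38, which holds 54349 of the 55401 gene IDs.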

Additional observations from a re-analysis of the deposited data

How the results depend on the processing

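None of the 9 hedgehog genes was called under any of the 15 alternatives, and 130 of 135 estimates kept their direction. Over the fits that left out 1 library, the estimate of Hhip ran from -0.16 to 0.27, of Boc from -0.050 to 0.13, of Lrp2 from -0.050 to 0.37, of Scube3 from -0.038 to 0.082 and of Shh from -0.32 to 0.033. Hhip was at 0.017 with the replicate block and Ccnd2 at -0.012 with only the libraries expressing Y-linked genes. Against the summed mesenchyme markers, an alternative added after the data were seen, Ptch1 came to 0.053, Hhip to 0.16, Smo to 0.11 and Gli2 to 0.026. That sum was itself lower in every mutant, which raises any such ratio there. The cause of these turns was not tested.

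The count of all called genes, 64, ran from 23 to 63 over the fits that left out 1 library (41 without control 1, 25 without control 3, 23 without mutant 2, 26 without mutant 3), and was 39 with the term for Y-linked expression, 33 with only the libraries expressing those genes and 282 in DESeq2. Members at an unadjusted p under 0.05 numbered 1 to 3 over the left-out libraries, 0 with the Y-linked term and 1 with only those libraries. That count was 3 without control 1, 2 without control 2, control 3 or mutant 2, and 1 without mutant 1 or 3. Members at an adjusted p under 0.05 numbered 1 in DESeq2. Members without overlap numbered 2 to 5 over the left-out libraries (5 without control 1 or mutant 2, 2 without mutant 1 or mutant 3). With fewer libraries, more of all genes had no overlap. In the main fit 1223 of 19612 genes were lower and 1402 higher without overlap. Without control 1 these were 2258 and 2033 of 20009. Members without overlap numbered 8 with only the libraries expressing Y-linked genes. There 1 control stands alone and is assumed to vary like the mutants. Of all 20596 genes tested with only those libraries, 5235 were lower and 4731 higher without overlap, so the 8 cannot be set against the main count. Other pathway genes called numbered 0 to 1 over the left-out libraries and 0 with only those libraries. Same-numbered libraries deviated together with an r of 0.0319, 0.109 and 0.131, and each correlated best with its own number, a hint from the data and not from the design. The replicate block gave 119 called genes and changed no call of a member. Dhh was at most 0.614 CPM in any library, and its estimate ran from 0.78 to 2.65 over the 14 alternatives that gave one.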
